A study of Rattus norvegicus with 6 samples.

Results

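The genes Lyn, Fgr, Syk, Btk, Plcg2, Vav1, Lat2 and Ptpn6, which encode kinases, adaptors and other signalling proteins that act just below immunoreceptors, were followed in LPS-stimulated primary rat microglia treated with or without siponimod. They were chosen by name, and all 8 were found among the 23139 genes listed for each library. Microglia were isolated from cortices of Wistar rats at postnatal day 1, shaken off mixed cultures and sorted with CD11b/c microbeads. Cells of the LPS + DMSO group received 100 ng/mL lipopolysaccharide (LPS, a bacterial endotoxin that activates Toll-like receptor signalling) together with the solvent DMSO, and cells of the LPS + Siponimod group received the same dose of LPS together with 50 µM siponimod, a modulator of sphingosine-1-phosphate receptors. Each condition had 3 libraries made from captured mRNA, so that all 6 libraries share the LPS stimulus. Unstimulated cells and cells given siponimod alone were not analysed here, and every value below compares LPS + Siponimod with LPS + DMSO. The cells were grown in culture after isolation from newborn animals, which limits them as a model of microglia in the adult brain.

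Many activating receptors of microglia, among them Fc receptors, several C-type lectins and the TREM receptors, signal through immunoreceptor tyrosine-based activation motifs (ITAMs) that lie in the receptor itself or in the associated chains FcRγ and DAP12. Src family kinases such as LYN and FGR phosphorylate these motifs, and SYK docks on the phosphorylated motifs and becomes active. Adaptors then bring together BTK, PLCγ2 and VAV1. This leads to calcium release, activation of protein kinase C and rearrangement of actin, while the phosphatase SHP-1, which is encoded by Ptpn6 and recruited by inhibitory receptors, removes phosphate groups and dampens the signal.

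The regions around the transcription start sites of Lat2 and Vav1 are shown because Lat2 had the largest fitted decrease of the 8 genes and because Vav1 was the only one of the matched genes that held the searched motif of PU.1, a transcription factor of myeloid cells. The sequences come from RefSeq on the assembly GRCr8 and hold 250 bases before and 50 bases after the annotated start, with the matched motif in capitals.
Lat2 (GRCr8 chr12:27740465-27740764, plus strand): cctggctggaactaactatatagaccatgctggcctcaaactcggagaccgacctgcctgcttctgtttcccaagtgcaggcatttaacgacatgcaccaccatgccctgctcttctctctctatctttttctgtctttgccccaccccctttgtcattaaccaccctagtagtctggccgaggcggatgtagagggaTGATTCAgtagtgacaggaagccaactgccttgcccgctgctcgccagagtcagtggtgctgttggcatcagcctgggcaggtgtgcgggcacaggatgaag
Vav1 (GRCr8 chr9:2248705-2249004, plus strand): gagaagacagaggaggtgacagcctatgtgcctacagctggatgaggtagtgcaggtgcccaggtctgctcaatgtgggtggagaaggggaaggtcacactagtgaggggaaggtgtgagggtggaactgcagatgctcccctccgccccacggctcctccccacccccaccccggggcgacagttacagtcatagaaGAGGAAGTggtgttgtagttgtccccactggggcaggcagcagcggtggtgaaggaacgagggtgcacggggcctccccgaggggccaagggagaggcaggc
The capitals mark TGATTCA in Lat2, a match to the AP-1 motif TGANTCA, and GAGGAAGT in Vav1, the PU.1 motif. Both matches began 52 bases before the annotated start. The Vav1 match lay on the gene's own strand, whereas TGANTCA matches both strands alike and has no strand. Of the 8 genes, 7 had an entry in the promoter table, all except Lyn. On both strands of these 7 windows, GAGGAAGT was found in 1, TGANTCA in 1 and the interferon-stimulated response element, GAAA and GAAA separated by any 2 bases, in 0. Among all 33469 windows of the same length these motifs were found in 2.42%, 7.33% and 3.92%. A match of this kind describes the letters only.

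In replicates 1, 2 and 3 of LPS + DMSO, 39484979, 38301365 and 38080379 reads were assigned to genes. In LPS + Siponimod these totals were 46643859, 43336006 and 38857441. Levels are given in CPM, the count of a gene per 1000000 counts of its library after TMM scaling. After removal of genes with low counts, the quasi-likelihood test of edgeR was run on 11977 genes, which included all 8. Differentially expressed genes (DEGs) changed at least 1.5-fold with a Benjamini-Hochberg adjusted p-value no higher than 0.05. In bulk libraries a smaller number of cells of a type cannot be told apart from less RNA per cell. The 3 libraries of a group are described as biological replicates without naming the animals or litters, so that the p-values measure the spread between these cultures.

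All 8 genes had a lower level with LPS + Siponimod, and their groups did not overlap, since every LPS + Siponimod library lay below every LPS + DMSO library. This separation in the downward direction was seen for 24.0% of all genes tested. As downregulated DEGs, 7 of the 8 genes passed both thresholds, against 11.7% of all genes tested, and Syk missed the adjusted p-value narrowly. None was higher, against 13.6% of all genes tested. The median log2 fold change (FC) of the 8 genes was -1.09, compared with -0.02 for all genes tested. With the replicate number as a block all 8 were downregulated DEGs, against 16.4% of all genes tested. These calls depended on single libraries. Leaving out LPS + DMSO replicate 1, LPS + DMSO replicate 2 or LPS + Siponimod replicate 1 left only Lat2 as a DEG, while 5.13%, 1.44% and 1.52% of all genes tested were downregulated DEGs. Without LPS + Siponimod replicate 3 there were 2, Lat2 and Fgr, against 2.24% of all genes tested.

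**Figure D1:**
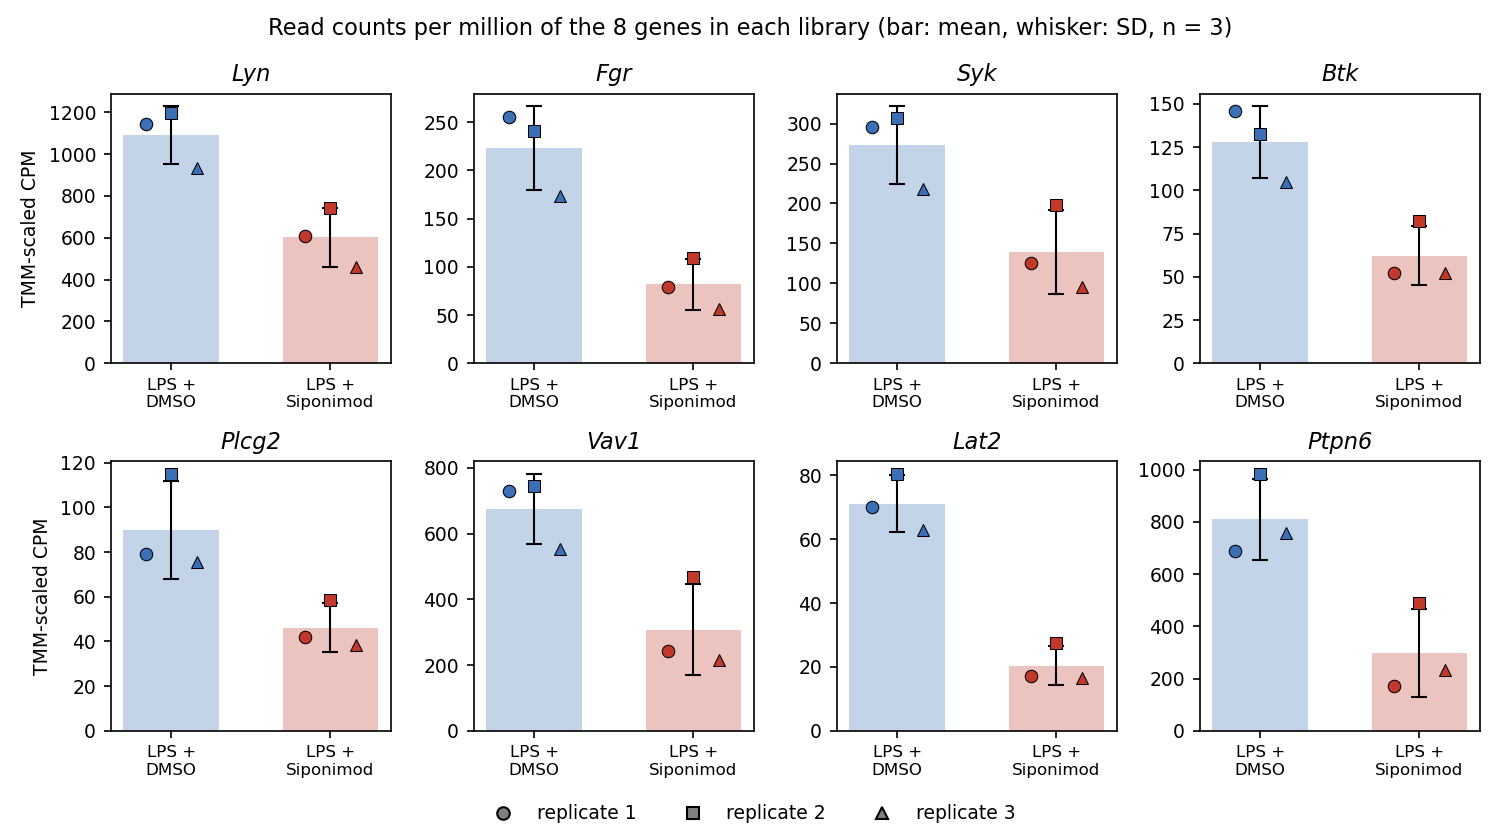
TMM-scaled CPM (vertical axis, from 0, a separate scale for each gene) of the 8 genes in the 3 LPS + DMSO libraries (blue) and the 3 LPS + Siponimod libraries (red), with symbols for the replicate number, bars for the mean and whiskers for the SD. In each panel all red points lie below all blue points, and LPS + Siponimod replicate 2 is the highest red point for all 8 genes.

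Lyn encodes a Src family kinase that phosphorylates both activating and inhibitory receptor motifs. Its level was 1142, 1195 and 934 CPM in the LPS + DMSO libraries and 608, 742 and 458 CPM in the LPS + Siponimod libraries. The highest LPS + Siponimod library thus remained below the lowest LPS + DMSO library. The log2 FC of Lyn was -0.86 (standard error 0.23, quasi-likelihood adjusted p = 0.0369), the smallest fitted decrease of the 8 genes, so that 55.3% of the LPS + DMSO level was left. Fgr, a Src family kinase gene expressed mainly in myeloid cells, had 255, 240.4 and 173 CPM with LPS + DMSO and 79.4, 109.6 and 56.2 CPM with LPS + Siponimod. In both groups replicate 3 held the lowest value of Fgr. Its log2 FC was -1.45 (standard error 0.28, quasi-likelihood adjusted p = 0.0171), which left 36.7% of the level. The treatment of reads matching more than 1 gene is not given in the sources used here, and values of the related Src family kinases are uncertain to that extent.

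Syk, the kinase gene at the centre of this pathway, had 295, 307 and 218 CPM with LPS + DMSO and 126, 198 and 95.1 CPM with LPS + Siponimod. The closest libraries of the groups, LPS + DMSO replicate 3 and LPS + Siponimod replicate 2, were 20.0 CPM apart. The log2 FC was -0.97 (standard error 0.30, 95% confidence interval -1.69 to -0.25), and with a quasi-likelihood adjusted p of 0.0543 Syk was not a DEG. With the replicate number as a block the log2 FC was -1.02 and the adjusted p 0.0131, so that Syk passed. Btk encodes a Tec family kinase that acts below SYK and phosphorylates PLCγ2. Its level was 146, 133 and 105 CPM with LPS + DMSO and 52.3, 82.2 and 52.3 CPM with LPS + Siponimod. Replicates 1 and 3 of LPS + Siponimod were nearly the same, with replicate 2 above them. The log2 FC of Btk was -1.04 (standard error 0.23, quasi-likelihood adjusted p = 0.0239).

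Plcg2 encodes the phospholipase that forms the second messengers inositol trisphosphate and diacylglycerol. It had 79.3, 115 and 75.5 CPM with LPS + DMSO and 41.8, 58.6 and 38.2 CPM with LPS + Siponimod. Replicate 2 was the highest library in both groups, and the differences within same-numbered pairs of libraries lay close together, at -0.92, -0.97 and -0.98 on the log2 scale. The fitted log2 FC was -0.96 (standard error 0.24, quasi-likelihood adjusted p = 0.0306). Vav1, which encodes an exchange factor that activates Rac GTPases, had 729, 744 and 552 CPM with LPS + DMSO and 242, 467 and 215 CPM with LPS + Siponimod. LPS + Siponimod replicate 2 stood well above the other libraries of its group but did not reach the LPS + DMSO libraries. The log2 FC of Vav1 was -1.13 (standard error 0.33, quasi-likelihood adjusted p = 0.0483).

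Lat2, whose product is a membrane adaptor that is phosphorylated by SYK and related kinases and binds GRB2, had 70.1, 80.5 and 63.0 CPM with LPS + DMSO and 17.2, 27.6 and 16.6 CPM with LPS + Siponimod. The gap of 35.4 CPM between the groups was larger than the range within each group. Its log2 FC was -1.80 (standard error 0.24, quasi-likelihood adjusted p = 0.00733), so that 28.7% of the LPS + DMSO level was left. It remained a DEG when any 1 of the 6 libraries was left out, with adjusted p-values between 0.00594 and 0.0432. Since the study tabulated Lat2 among genes selected from these libraries, its decrease is not independent evidence. Ptpn6, the gene of the inhibitory phosphatase SHP-1, had 688, 984 and 759 CPM with LPS + DMSO and 171, 489 and 234 CPM with LPS + Siponimod. Among the 8 genes it was the most variable between replicates, with a biological coefficient of variation of 0.362. The log2 FC of Ptpn6 was -1.44 (standard error 0.41, quasi-likelihood adjusted p = 0.0449), and without LPS + DMSO replicate 2 the adjusted p was 0.145.

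**Figure D2:**
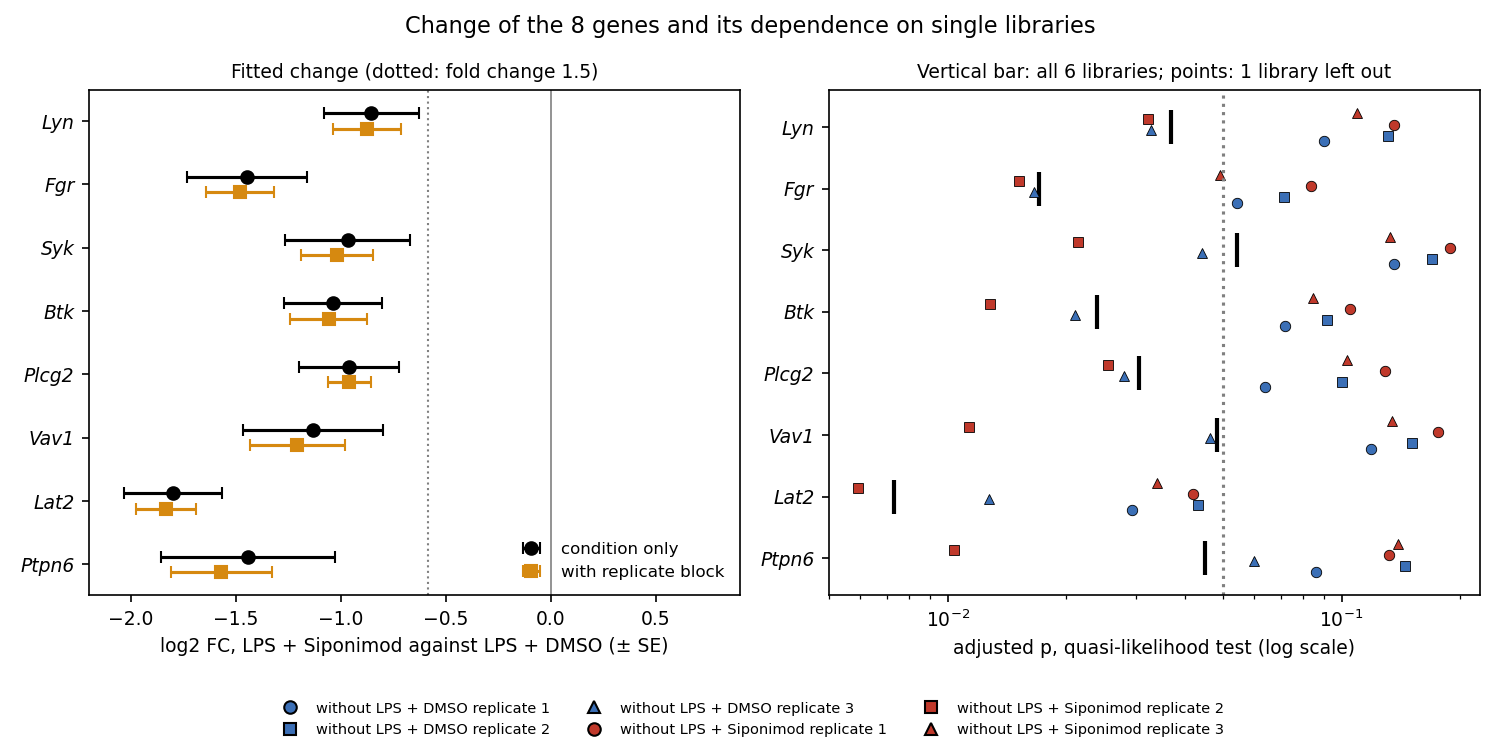
Left, fitted log2 FC of LPS + Siponimod against LPS + DMSO (horizontal axis, ± standard error) for the 8 genes without (black) and with (orange) the replicate block, with a dotted line at a fold change of 1.5. Right, adjusted p of the quasi-likelihood test on a log axis with all 6 libraries (vertical bars) and with each library left out (points), where only Lat2 stays below the dotted line at 0.05 throughout.

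The libraries of each group were ordered in much the same way for the 8 genes. LPS + Siponimod replicate 2 was the highest of its group for 8 of 8 genes, which was also the case for 85.3% of the 1403 downregulated DEGs. LPS + DMSO replicate 3 was the lowest of its group for 7 of 8 genes, with Ptpn6 as the exception, compared with 51.0% of the downregulated DEGs. All 8 genes were lower in each of the 3 same-numbered pairs, as were 35.4% of all genes tested, and for 7 of the 8 the smallest difference was that of pair 2, Plcg2 being the exception (65.6% of the downregulated DEGs). Without LPS + Siponimod replicate 2 the median log2 FC of the 8 genes was -1.44 and all 8 were DEGs, against 11.6% of all genes tested.

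**Figure D3:**
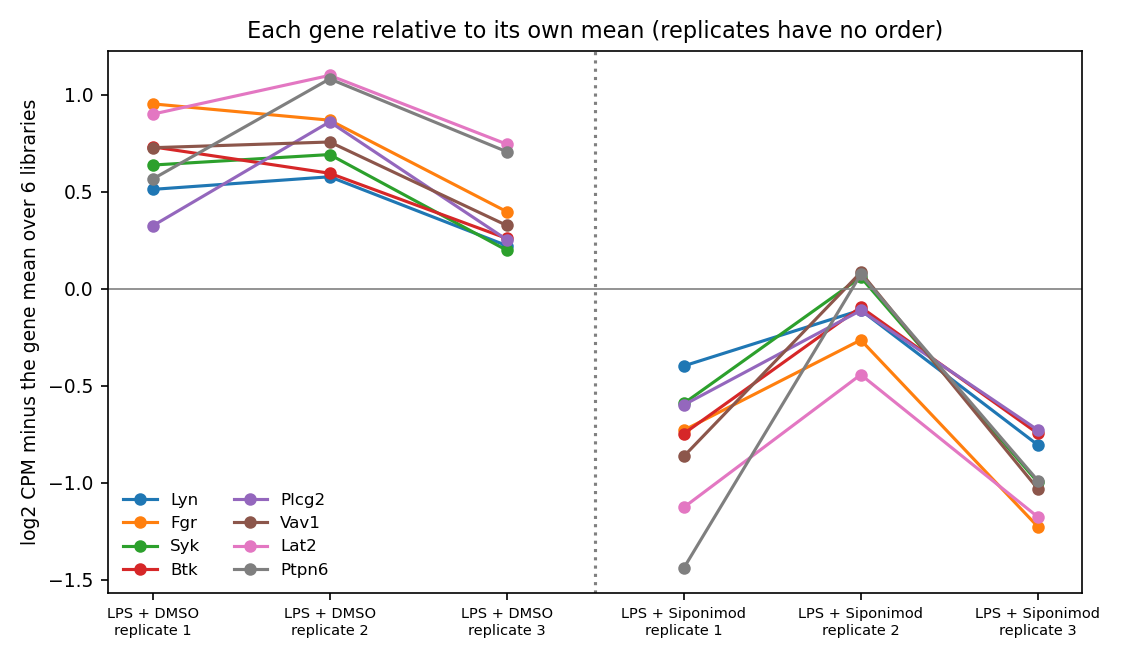
Log2 CPM of each of the 8 genes minus its own mean over the 6 libraries (vertical axis), by library, with lines joining the replicates of a group only to guide the eye. For all 8 genes LPS + Siponimod replicate 2 lies above the other LPS + Siponimod libraries, and for 7 of the 8 LPS + DMSO replicate 3 is the lowest of its group.

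The fitted decreases ranged from -0.86 for Lyn to -1.80 for Lat2, and the ratio of Lat2 to each of the other genes was therefore followed within libraries. With LPS + Siponimod the ratio of Lat2 to Lyn was 51.6% of that with LPS + DMSO, and the ratios to Plcg2, Syk, Btk and Vav1 were 54.7%, 57.0%, 58.5% and 64.9%. For these 5 genes the groups did not overlap, whereas for the ratios of Lat2 to Fgr (78.4%) and to Ptpn6 (83.5%) they did. Of 28 ratios between the 8 genes, 11 did not overlap, near the 36.7% seen for all pairs of downregulated DEGs. With 3 libraries against 3 a two-sided exact permutation test cannot go below p = 0.10, the value it gave for each of the 5 ratios, or 0.255 adjusted over the 28 ratios. This test could therefore not show whether the decreases were unequal. Lat2 was followed because its fitted decrease was the largest of the 8 genes in these libraries. Its average ratio to every other gene was therefore bound to fall. Within same-numbered pairs, the ratio of Lat2 to each of the other genes fell in every pair. The log2 differences were -0.345, -0.409 and -0.297 for Fgr and -0.0216, -0.534 and -0.226 for Ptpn6. These differences within pairs were not tested.

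**Figure D4:**
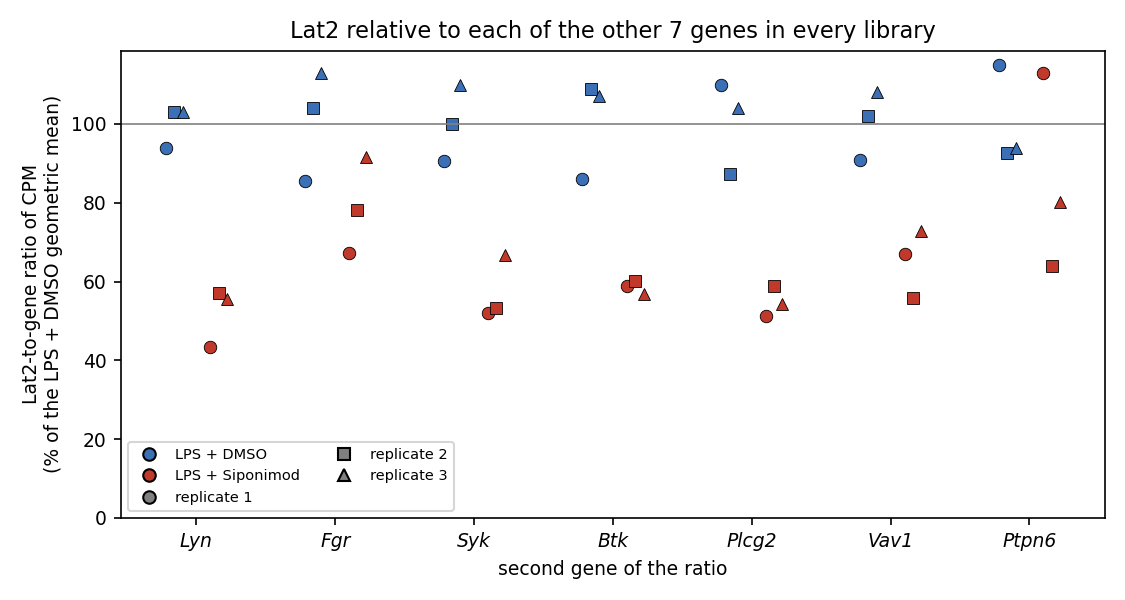
Ratio of Lat2 CPM to the CPM of each of the other 7 genes (horizontal axis) in every library, in percent of the geometric mean of the LPS + DMSO libraries (vertical axis, from 0). The LPS + Siponimod points (red) lie below all LPS + DMSO points (blue) for Lyn, Syk, Btk, Plcg2 and Vav1 and overlap with them for Fgr and Ptpn6.

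For each of the 8 genes, the tested gene nearest in pattern was found by the root mean square difference of centred log2 CPM over the 6 libraries. It was Kdm1b for Lyn (0.037), Igsf6 for Fgr (0.0917), Zfp710 for Syk (0.0706), Ago4 for Btk (0.0243), Sos1 for Plcg2 (0.0815), Ctnnbip1 for Lat2 (0.0943), Ceacam4 for Vav1 (0.0965) and Tnfaip8 for Ptpn6 (0.0861). Among the 8 genes themselves the closest pair was Syk and Vav1, at 0.132. By nearness to each gene among all genes, the nearest of the other 7 ranked between 18 (Syk for Vav1) and 117 (Syk for Lyn). For comparison, the median distance of all genes to Syk was 0.711.

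The wider pathway was described with 7 lists that held 123 further genes, of which 118 were listed in the libraries and 110 were tested. Of these, 25 were downregulated DEGs (22.7%, against 11.7% of all genes tested) and 17 were upregulated DEGs (15.5%, against 13.6%), and 68 were not called. Their median log2 FC was -0.18. The block gave 37 lower genes (33.6%, against 16.4% of all genes tested) and 21 higher genes (19.1%, against 17.7%). The share of lower genes was near or below that of all genes when some libraries were left out. Without LPS + DMSO replicate 1, 6 were called lower (5.45%, against 5.13% of all genes tested), and without LPS + DMSO replicate 2 there was 1 (0.909%, against 1.44%). Without LPS + Siponimod replicate 1 there were 2 (1.80%, against 1.52%), and without LPS + Siponimod replicate 3 also 2 (1.80%, against 2.24%). The higher genes numbered between 7 (6.36%, against 3.72% of all genes tested), without LPS + DMSO replicate 2, and 21 (18.9%, against 15.9%), without LPS + DMSO replicate 3.

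Among ITAM chains and the receptors that couple to them, 4 of 14 tested genes were lower and 4 higher (against 11.7% and 13.6% of all genes tested), with a median log2 FC of -0.56. Among the decreases, Itgam, the integrin αM chain, had the smallest adjusted p (log2 FC -0.87, edgeR quasi-likelihood adjusted p = 0.0112). It was followed by the high-affinity IgG receptor gene Fcgr1a (-1.30, 0.0169) and Fcer1g, which encodes the FcRγ chain (-0.88, 0.0274). Tyrobp, the gene of the other chain, DAP12, had 501 ± 51.7 CPM with LPS + DMSO and 424 ± 99.3 CPM with LPS + Siponimod (mean ± SD of 3 libraries), with a quasi-likelihood adjusted p of 0.411. The C-type lectin receptor genes Clec4d (log2 FC 6.57, quasi-likelihood adjusted p = 0.00241), Clec5a (6.01, 0.00241) and Clec7a (2.89, 0.00568) rose. Counts of Clec7a, which encodes the β-glucan receptor Dectin-1, were 407, 223 and 232 with LPS + DMSO and 3033, 2597 and 1929 with LPS + Siponimod. With the block, 7 genes of this list were lower and 5 higher, against 16.4% and 17.7% of all genes tested. The lower calls depended on single libraries, with 1 left without LPS + DMSO replicate 1 and 0 without LPS + DMSO replicate 2, LPS + Siponimod replicate 1 or LPS + Siponimod replicate 3. In those fits between 1.44% and 5.13% of all genes tested were lower. The higher calls numbered 4 or 5 whichever library was left out, against 3.72% to 15.9% of all genes tested.

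Of 10 tested kinases of the Src and Tec families with Csk and Zap70, 2 were lower and 1 was higher. Among all genes tested, 11.7% were lower and 13.6% higher. The median log2 FC of the list was -0.17. Csk, whose product phosphorylates and restrains Src family kinases, fell (log2 FC -1.20, quasi-likelihood adjusted p = 0.0261). Without replicate 1 or 2 of LPS + DMSO, or replicate 1 or 3 of LPS + Siponimod, 0 genes of the list were lower. In those fits between 1.44% and 5.13% of all genes tested were lower. Without LPS + DMSO replicate 3, 1 was lower, against 14.5% of all genes tested. Yes1, a broadly expressed Src family kinase gene, was higher (log2 FC 1.78, quasi-likelihood adjusted p = 0.043), with 74, 72 and 198 counts with LPS + DMSO and 477, 312 and 592 counts with LPS + Siponimod. This call was not stable, since 0 genes of the list were higher with no filter beyond 1 count and in 5 of the 6 fits with a library left out, all but the one without LPS + DMSO replicate 3. In the fits with 0 higher genes, between 3.72% and 11.8% of all genes tested were higher. Blk and Bmx had no count in any library.

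Adaptor genes were lower in 7 and higher in 2 of 22 cases, against 11.7% and 13.6% of all genes tested (median log2 FC -0.17). Sh3bp2, an adaptor that binds SYK (from 240.4 ± 14.9 to 120.4 ± 10.6 CPM, quasi-likelihood adjusted p = 0.00733), Fyb1 (log2 FC -1.69, 0.0166) and Grb2 (-1.07, 0.0166), the adaptor that links receptors to Ras, had the smallest adjusted p-values among the decreases. Gab2, a docking protein that recruits phosphatidylinositol 3-kinase (PI3K), rose (log2 FC 1.18, quasi-likelihood adjusted p = 0.0145). Lat, the relative of Lat2 best known from T cells, had 10, 13 and 15 counts with LPS + DMSO and 62, 39 and 126 counts with LPS + Siponimod (log2 FC 2.37, quasi-likelihood adjusted p = 0.0272), far fewer than Lat2 in every library. Neither Gab2 nor Lat was called without LPS + DMSO replicate 2, LPS + Siponimod replicate 1 or LPS + Siponimod replicate 3, when 0 adaptors were higher, and 1 adaptor was higher with limma-voom or without LPS + DMSO replicate 1. The lower adaptors numbered between 1 and 9 with a library left out. Of all genes tested, between 1.44% and 14.5% were lower and between 3.72% and 15.9% higher in these fits. Clnk, Grap2 and Bank1 had 3 counts or fewer in every library.

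In the list of lipases, lipid kinases and lipid phosphatases, 3 of 11 genes were lower and 2 higher (median log2 FC 0.12). The shares among all genes tested were 11.7% and 13.6%. Plcg1, the relative of Plcg2 (log2 FC -0.91, quasi-likelihood adjusted p = 0.0186), Inpp5d, which encodes the lipid phosphatase SHIP1 (-1.03, 0.0225), and Pik3cg, the PI3Kγ subunit (-1.92, 0.0351), fell. The catalytic subunit genes Pik3cb (log2 FC 1.74, quasi-likelihood adjusted p = 0.00726) and Pik3ca (0.72, 0.00989) rose. Exchange factors and small GTPases were lower in 3 and higher in 2 of 14 cases (against 11.7% and 13.6% of all genes). Their median log2 FC was -0.46. Vav2 (log2 FC -1.29, quasi-likelihood adjusted p = 0.0125) and Vav3 (-1.46, 0.0266) fell, as Vav1 did, together with Sos1 (-1.02, 0.0359). Rasgrp3, a diacylglycerol-responsive exchange factor for Ras, rose (log2 FC 3.53, quasi-likelihood adjusted p = 0.00536), as did Sos2 (0.69, 0.0279). With the block 6 genes of this list were lower (against 16.4% of all genes tested), and with a library left out between 0 and 5. In the list of lipases and lipid kinases between 0 and 4 were lower with a library left out. Of all genes tested, between 1.44% and 14.5% were lower in the fits with a library left out.

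Of 21 tested protein phosphatases, Cbl ligases and receptors with inhibitory motifs, 3 were lower and 4 higher (median log2 FC 0.13). Of all genes tested, 11.7% were lower and 13.6% higher. Ubash3b, whose product removes phosphate from SYK (log2 FC -1.59, quasi-likelihood adjusted p = 0.0146), the receptor phosphatase Ptprj (-1.36, 0.0178) and Ptpn18 (-1.38, 0.0426) fell. Ptprc, which encodes the phosphatase CD45, had 526 ± 124 CPM with LPS + DMSO and 519 ± 102 CPM with LPS + Siponimod (mean ± SD of 3 libraries). The inhibitory receptor genes Lilrb4 (log2 FC 3.53, quasi-likelihood adjusted p = 0.00396) and Fcgr2b (2.14, 0.0145) rose. Ptpn22, a phosphatase of Src family kinases, was counted 4, 2 and 0 times with LPS + DMSO and 73, 38 and 87 times with LPS + Siponimod (quasi-likelihood adjusted p = 0.0145). In the calcium, protein kinase C and CARD9 branch 3 of 18 genes were lower and 2 higher (against 11.7% and 13.6% of all genes). The median log2 FC of this branch was -0.10. Stim1, the calcium sensor of the endoplasmic reticulum (log2 FC -0.78, quasi-likelihood adjusted p = 0.027), Nfatc2 (-1.99, 0.0418) and Prkcb (-1.20, 0.0431) fell. Itpr3, a receptor for inositol trisphosphate (log2 FC 2.67, quasi-likelihood adjusted p = 0.00989), and the calcium channel gene Orai1 (0.62, 0.0276) rose. With the block 5 genes of this branch were lower, against 16.4% of all genes tested. With no filter beyond 1 count 1 was lower (against 6.53% of all genes tested), and 0 were without LPS + DMSO replicate 1, LPS + DMSO replicate 2, LPS + Siponimod replicate 1 or LPS + Siponimod replicate 3. In the list of phosphatases, Cbl ligases and inhibitory receptors between 0 and 4 were lower and between 1 and 5 higher with a library left out. Of all genes tested, between 1.44% and 14.5% were lower and between 3.72% and 15.9% higher with a library left out.

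**Figure D5:**
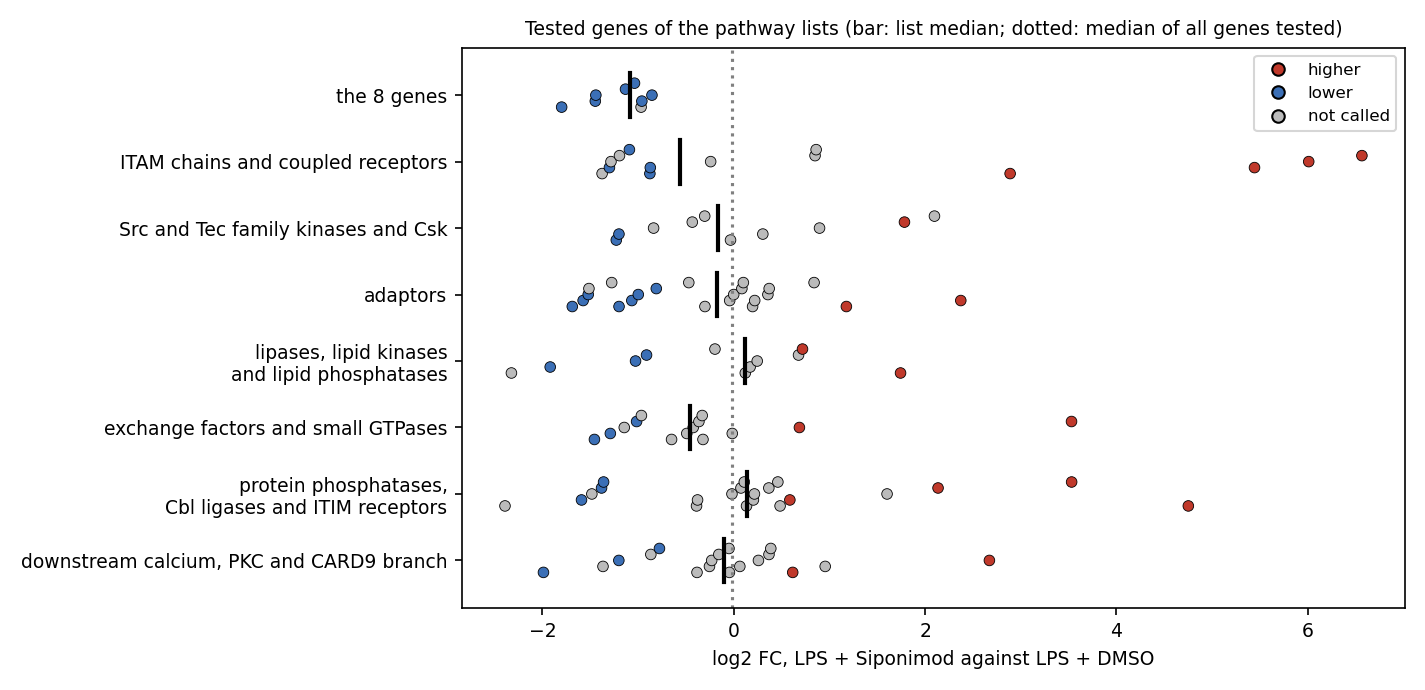
Log2 FC of LPS + Siponimod against LPS + DMSO (horizontal axis) of every tested gene of the 8 genes and of the 7 wider lists, coloured by call, with black bars for list medians and a dotted line for the median of all genes tested (-0.02). The 8 genes lie on the left without exception, and every wider list holds genes called in either direction.

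Markers of microglia were present in every library. Of 12 markers, 3 were lower (against 11.7% of all genes tested) and 0 higher (against 13.6%). The lower markers were Aif1 (log2 FC -1.88, edgeR quasi-likelihood adjusted p = 0.0212), Cx3cr1 (-3.65, 0.0392) and Itgam. The summed level of the 12 markers was 8232, 7097 and 5069 CPM with LPS + DMSO and 4324, 5197 and 3434 CPM with LPS + Siponimod, and Csf1r was the most abundant of them. With the block 5 markers were lower and 1 was higher, against 16.4% and 17.7% of all genes tested. This sum was lower with LPS + Siponimod in each pair, although the groups overlapped, and its part in the decrease of the 8 genes was not tested. Spi1, the gene of PU.1, had 17513, 19286 and 18367 counts with LPS + DMSO and 16522, 18694 and 11179 counts with LPS + Siponimod (log2 FC -0.49, quasi-likelihood adjusted p = 0.097). The share of counts on 13 mitochondrially encoded genes was 1.54%, 1.39% and 1.41% with LPS + DMSO and 0.313%, 0.610% and 0.568% with LPS + Siponimod. Its part was not tested either.

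Since Lyn, Btk, Plcg2 and Syk are also used by B cells and mast cells, markers of these cells were counted. Of 5 B cell markers, Cd79a and Ms4a1 had between 0 and 3 counts in every library. The summed level of 16.1, 60.8 and 30.9 CPM with LPS + DMSO and 0.904, 22.1 and 1.02 CPM with LPS + Siponimod came almost entirely from Cd79b, which was not a DEG (quasi-likelihood adjusted p = 0.248) but was lower with the block (0.0266). Of 5 listed mast cell markers, Cpa3, Ms4a2 and Tpsab1 had no count in any library, and Hdc, the most abundant, was not a DEG. Their summed level was 0.297, 0.441 and 0.431 CPM with LPS + DMSO and 0.323, 0.381 and 1.27 CPM with LPS + Siponimod. T and natural killer cell markers gave sums of 11.1, 10.6 and 9.23 CPM and of 8.05, 8.92 and 8.05 CPM, mostly from Lck, with 0 of 2 tested genes called and with Cd3e, Cd3g and Prf1 at 0. Among neutrophil markers S100a8 was lower (quasi-likelihood adjusted p = 0.0219), while Mpo and Elane had no count, and the summed level of 6 listed markers was 2.35, 2.47 and 3.34 CPM with LPS + DMSO and 0.560, 0.695 and 0.683 CPM with LPS + Siponimod. The endothelial sum was 119.8, 98.5 and 62.8 CPM with LPS + DMSO and 33.7, 60.2 and 19.8 CPM with LPS + Siponimod. It came mostly from Cdh5, whereas Kdr had no count, and 0 of 3 tested endothelial genes were called, 1 of them with the block. The part of Cd79b and Cdh5 in the decreases was not tested.

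The summed levels of oligodendrocyte lineage markers and of neuron markers were highest in the replicate 3 library of each group. Olig1 had 515 counts in LPS + DMSO replicate 3 and 17 in LPS + Siponimod replicate 3, against 1 to 5 counts in the 4 other libraries. The oligodendrocyte lineage sum was 5.34, 5.37 and 36.0 CPM with LPS + DMSO and 11.4, 10.3 and 22.6 CPM with LPS + Siponimod, and of 3 tested genes Mbp, the most abundant, was higher (quasi-likelihood adjusted p = 0.0172), although LPS + DMSO replicate 3 was its lowest library with 84 counts. The neuron sum was 1.70, 1.04 and 11.4 CPM with LPS + DMSO and 4.37, 5.85 and 15.1 CPM with LPS + Siponimod, and Tubb3 was its most abundant gene. Astrocyte markers, led by Slc1a3, summed to 42.5, 21.1 and 24.3 CPM with LPS + DMSO and 27.5, 26.9 and 59.1 CPM with LPS + Siponimod. Within this list Gfap had 1, 2 and 88 counts with LPS + DMSO and 0, 0 and 1 with LPS + Siponimod. Sox9 had 0, 5 and 99 against 3, 1 and 59, and Slc1a2 had 5, 3 and 82 against 4, 4 and 22. Aqp4 (10 counts) and Gja1 (41) were also highest of their group in LPS + DMSO replicate 3, whereas Slc1a3 (574) and Aldh1l1 (7) were lowest there. None of 3 tested astrocyte genes was called, and the 1 tested neuron gene, Tubb3, was higher only with the block (adjusted p = 0.0316 with edgeR's quasi-likelihood test, against 0.251 without it). Among 4 tested fibroblast and pericyte genes Dcn was higher (quasi-likelihood adjusted p = 0.0155), against 13.6% of all genes tested. Its counts were 3, 0 and 4 with LPS + DMSO and 456, 49 and 178 with LPS + Siponimod. Col1a1 (log2 FC -0.89), Pdgfrb (-0.65) and Col1a2 (0.26) were not called, and the list median was -0.19. When both replicate 3 libraries were left out, an alternative added after the data were examined, the median log2 FC of the 8 genes was -1.05 and 2 of the 8, Fgr and Lat2, were DEGs (against 8.17% of all genes tested), each with a quasi-likelihood adjusted p of 0.0339.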

How the data were processed

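Total read counts per gene were deposited by the authors as 1 table for each of the 6 libraries, without normalization. Base calls had been converted with bcl2fastq (2.20.0.422, per the submitters' processing notes), and reads trimmed and mapped to the rat genome mRatBN7.2 in the CLC Genomics Workbench. The handling of strand and of reads that match several genes is not stated. A row of 1 table without a name or value (1 row, 0 counts) was left out. Single reads are not independent molecules, and the floor of 3 counts covers counting error only.

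Counts were analysed in R (4.3.3) with edgeR (4.0.16), using filterByExpr (minimum count 10, minimum total 15), TMM factors and the quasi-likelihood test (glmQLFTest) in a model of the condition alone. Standard errors are the log2 FC divided by the square root of the F statistic, and confidence intervals use its total (residual plus prior) degrees of freedom. Differences within pairs and ratios use log2 CPM with a prior count of 2. After centring on group means, deviations of same-numbered libraries correlated at 0.42, 0.545 and 0.611 over genes, and the numbers were therefore treated as pairs in the alternative with a replicate block. The labels do not say whether same-numbered libraries came from one culture. The pairing was thus inferred from the same values to which the block was applied. Further alternatives were RLE factors, DESeq2 (1.42.0), limma-voom (limma 3.58.1), the likelihood ratio test, other filters (no filter beyond 1 count, a mean of at least 1 CPM) and each library left out. The procedure was tested on simulated counts.

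The genes and lists were chosen with earlier results of these data known. Named are the 8 genes, of each wider list up to 3 DEGs per direction with the smallest adjusted p, genes with 3 counts or fewer in every library, the gene nearest in pattern and the leading markers. Values of 2 genes that belong to these lists are not reported here. Tyrobp, Ptprc, Spi1 and the other markers given by value were chosen after their values were seen. Promoters were taken from RefSeq (GRCr8) by gene symbol, an assembly other than that of the counts, and positions are given only for the printed promoter windows and their motifs, on that assembly.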

Additional observations from a re-analysis of the deposited data

How the results depend on the processing

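All 8 genes had a negative log2 FC in each of 8 fits with all libraries and in each of the 6 that left out 1 library. Syk passed with DESeq2 (log2 FC -0.97), limma-voom (-1.02), the likelihood ratio test (-0.97), the replicate block (-1.02) and the block with the likelihood ratio test (-1.02). The replicate block ended no call among the 8 genes. With no filter beyond 1 count Lyn (-0.86, quasi-likelihood adjusted p = 0.0573), Ptpn6 (-1.45, 0.0575) and Vav1 (-1.14, 0.0653) no longer passed, so that 4 of the 8 genes were called, against 6.53% of the 17057 genes then tested. The block with the likelihood ratio test gave 2302 downregulated DEGs (19.2% of all genes tested) and 38 lower genes in the wider lists (34.5%). Without both replicate 3 libraries, an alternative chosen after seeing the data, 2 of the 8 genes and 9 of the wider genes (8.18%, against 8.17% of all genes tested) were called lower, and Lyn (-0.79), Btk (-1.05), Plcg2 (-0.95), Vav1 (-1.05) and Ptpn6 (-1.34) did not pass. Leaving out each library in turn gave 182 to 1772 downregulated DEGs (1.44% to 14.5% of all genes tested) and 469 to 1941 upregulated DEGs (3.72% to 15.9%). Of the 8 genes 1 to 8 were then lower, with a median log2 FC between -1.44 and -0.92. In the wider lists 1 to 31 genes were lower (0.909% to 27.9%) and 7 to 21 higher (6.36% to 18.9%). The log2 FC ranged from -1.04 to -0.69 for Lyn, -1.72 to -1.23 for Fgr, -1.31 to -0.75 for Syk, -1.30 to -0.92 for Btk, -1.18 to -0.73 for Plcg2, -1.57 to -0.93 for Vav1, -2.08 to -1.67 for Lat2 and -2.01 to -1.17 for Ptpn6. Of these 6 fits, Lat2 passed in 6, Fgr in 3, Lyn, Syk, Btk, Plcg2 and Vav1 in 2 each and Ptpn6 in 1. Fewer libraries enter these fits, and the cause of the other changes was not tested. The 8 genes had at least 680 counts in every library, so that the spread between libraries rather than depth limits their comparison.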
